A study of Mus musculus with 2 samples.

Results

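Genes for 10 secreted proteins of the acute phase and of innate defence were followed in primary mouse osteoblasts: Saa3, Lcn2, Ptx3, Lbp, Hp, Slpi, Serpina3n, Chil1, Lrg1 and Fgl2. They were chosen by name, in part because their ratios between the arrays were large, so their own ratios are given here as a description and support nothing further. The members were found as 13 probe sets of 34958 that map to a single gene, that is 10 genes of 18194. A probe set is the group of short oligonucleotides on an Affymetrix array that together read a transcript.

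The question behind the arrays was what secreted factors of different prostate cancer lines do to the transcripts of osteoblasts, the cells that build bone matrix. Osteoblasts were kept in alpha-MEM with fetal calf serum at 10% and were at day 10 of differentiation, driven by beta-glycerophosphate at 10 mM together with ascorbic acid at 50 µg/ml. After a night without serum, all cells spent 6 hours in conditioned medium, which came from MDA-PCa2b cells for 1 array and from PC-3 cells for the other. MDA-PCa2b and PC-3 are established human lines from bone metastases of prostate cancer, the former known for bone-forming and the latter for bone-destroying lesions. Mouse strain, age and the number of animals behind each culture are not given in the sources used here, and osteoblasts without tumour-cell medium were not analysed here. With 1 array per medium there was no replicate, no SD and no test, and "higher" and "lower" describe the PC-3 medium array relative to the MDA-PCa2b medium array.

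The labelled cell type was checked against 12 osteoblast genes, of which 9 had a probe set and all 9 were above the floor on both arrays. The floor is the median signal of the non-control probe sets of an array, 56.7 for the MDA-PCa2b medium array and 57.7 for the other, and signals below it were not used as levels. Ibsp, the bone sialoprotein gene, gave signals of 17106 and 15794. Ifitm5 (4442 and 741) and Dmp1 (1765 and 426), genes of mineralising and late osteoblasts, were 6.00-fold and 4.14-fold lower with PC-3 medium. They were the only 2 of the 9 markers past 2-fold. By brightest probe sets the other 7 had log2 ratios from -0.68 (Sp7) to -0.004 (Col1a1), with Phex at -0.10. The median log2 ratio of the 9 was -0.12. Both signals exceeded their floors for 10650 genes, only the PC-3 medium signal did for 327, only the MDA-PCa2b medium signal for 359, and neither for 6858. The median log2 ratio of the 10650 genes was -0.04. Log2 ratios of different probe sets of a gene scattered around their mean with an SD of 0.24 over 4926 genes. That scatter belongs to this pair of arrays and is not the spread between cultures.

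The acute phase is the change in secreted proteins that follows infection or injury, known best from the liver and driven by interleukin-6 family cytokines, interleukin-1 and tumour necrosis factor. These act through STAT3, C/EBP and NF-kB transcription factors on the promoters of the responding genes. Stromal cells also make such proteins locally: some bind microbes or their lipids, some withhold iron or haem from them, and others restrain the proteases that leukocytes release.

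Upstream sequence was set beside the signals because the members were chosen as a group with high ratios. RefSeq promoters (build GRCm38.p6) matched 8 of the 10 genes; Lbp and Hp had no match. Of these 8, 4 held the C/EBP motif spelled TTNNGCAA (N is any base, both strands) in the 250 bases before the annotated start, against 9.56% of 32851 promoters of the same length. The 4 stretches are shown because they hold this match, which is in capitals, 5′ to 3′ on the strand of the gene. They lie at chr7:46715677-46715926, minus strand (Saa3), chr2:32387740-32387989, minus strand (Lcn2), chr3:66219637-66219886, plus strand (Ptx3) and chr2:164356508-164356757, minus strand (Slpi).
Saa3: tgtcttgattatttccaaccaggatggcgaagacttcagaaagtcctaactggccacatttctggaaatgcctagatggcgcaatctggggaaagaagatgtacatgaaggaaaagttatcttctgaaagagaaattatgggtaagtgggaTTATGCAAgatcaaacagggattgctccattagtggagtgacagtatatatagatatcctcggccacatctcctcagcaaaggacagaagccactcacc
Lcn2: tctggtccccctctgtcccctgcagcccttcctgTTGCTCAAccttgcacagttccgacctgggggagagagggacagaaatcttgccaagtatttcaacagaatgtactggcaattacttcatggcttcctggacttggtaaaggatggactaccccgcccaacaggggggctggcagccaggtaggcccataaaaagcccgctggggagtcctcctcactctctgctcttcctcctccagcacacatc
Ptx3: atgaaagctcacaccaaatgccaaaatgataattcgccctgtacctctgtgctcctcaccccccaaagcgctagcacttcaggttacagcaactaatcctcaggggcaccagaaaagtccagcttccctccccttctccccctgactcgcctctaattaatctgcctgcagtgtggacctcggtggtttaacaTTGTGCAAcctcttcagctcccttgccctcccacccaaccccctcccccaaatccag
Slpi: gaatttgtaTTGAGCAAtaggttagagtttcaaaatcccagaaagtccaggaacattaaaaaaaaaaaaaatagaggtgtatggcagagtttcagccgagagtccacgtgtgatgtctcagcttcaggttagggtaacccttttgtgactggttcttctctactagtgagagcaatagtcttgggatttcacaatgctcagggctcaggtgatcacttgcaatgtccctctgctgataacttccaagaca

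The match began 99 bases before the start in Saa3 (TTATGCAA), 57 in Ptx3 (TTGTGCAA), 216 in Lcn2 (TTGCTCAA, the motif on the opposite strand) and 241 in Slpi (TTGAGCAA). The positions thus differed widely among the 4 genes. With the looser spelling TTNNGNAA, which includes every match of the stricter one, 7 of 8 promoters held a match, against 36.8% of all; Lrg1 was the exception. The kappa-B motif that NF-kB binds, spelled GGGNNNNNCC on both strands, was found in 4 of 8 (Lcn2, Serpina3n, Chil1 and Lrg1), a share like the 45.8% of all promoters. The STAT motif TTCNNNGAA and the AP-1 motif TGANTCA, both strands, were each found in Fgl2 alone, against 7.02% and 6.75% of all promoters. The members' upstream stretches held a median of 2.5 CpG dinucleotides (range 1 to 10, the highest in Fgl2), against 6 over all promoters. These matches are letters in a short window and were not tested as binding sites. The members were chosen in part for large ratios and several spellings were searched, so nothing is read from the shares of promoters. The promoters compared, 32851 in number, belong to 27025 genes, so some genes count more than once.

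**Figure D1:**
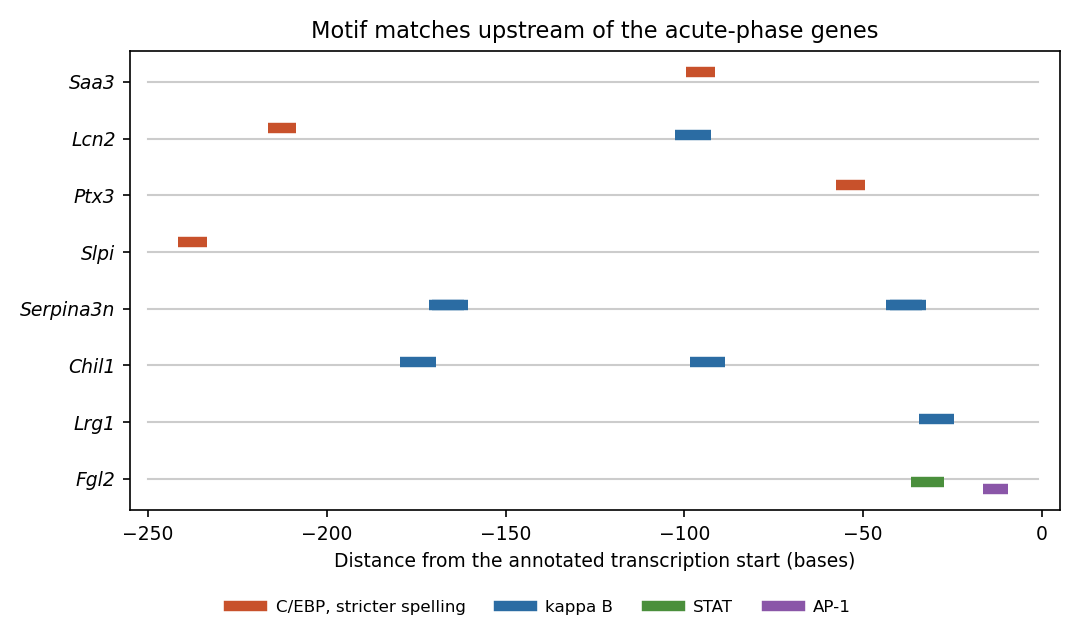
Matches to 4 motifs (coloured bars) in the 250 bases upstream of 8 acute-phase genes, by distance in bases from the annotated transcription start; grey lines are the windows searched. C/EBP matches in the stricter spelling lie in Saa3, Lcn2, Ptx3 and Slpi, and Fgl2 alone holds the STAT and AP-1 matches.

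The genes for proteins that bind microbial surfaces or lipids were led by Saa3. Saa3 encodes a serum amyloid A made mainly outside the liver, which binds lipids and attracts leukocytes. Its only probe set read 306 on the MDA-PCa2b medium array and 7587 on the PC-3 medium array, 24.8-fold higher (log2 ratio 4.63). Both signals were well clear of the floor, and the ratio was the third highest among the 10650 genes with both signals over the floor.

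Ptx3 encodes a long pentraxin that opsonises microbes and helps to build hyaluronan-rich matrix. Its brighter probe set gave 426 and 2911, 6.83-fold higher (log2 ratio 2.77). Its other probe set, near the floor on both arrays, went the opposite way, with 90.2 and 62.3 (log2 ratio -0.53). The probe sets of Ptx3 therefore disagree in direction, and their mean gave a log2 ratio of 1.12.

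Lbp encodes the lipopolysaccharide-binding protein, which hands bacterial lipopolysaccharide to CD14. The brighter of its probe sets gave 994 and 3681, 3.70-fold higher (log2 ratio 1.89). The other gave 56.7, barely above the floor, and 326 (log2 ratio 2.52), so both probe sets were higher with PC-3 medium.

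The genes of iron and haem binding had low signals with MDA-PCa2b medium. Lcn2 encodes lipocalin-2, which sequesters bacterial siderophores and is known as a hormone secreted by osteoblasts. It read 32.2 on the MDA-PCa2b medium array, below the floor, and 479 on the PC-3 medium array, at least 8.44-fold higher. Hp encodes haptoglobin, which captures free haemoglobin. It gave 74.3 and 487, 6.56-fold higher (log2 ratio 2.71). The lower Hp signal was only 1.31 times its floor, which leaves the size of the ratio uncertain. Raising the floor to the 75th percentile put the MDA-PCa2b medium signals of both genes under it. Their log2 ratios were then lower bounds, 0.70 for Hp and 0.68 for Lcn2. Both bounds are under 2-fold, which does not show that the ratios are.

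The members that inhibit proteases differed in how much signal they gave with MDA-PCa2b medium. Slpi encodes the secretory leukocyte protease inhibitor, which blocks neutrophil elastase. It gave 1983 and 5824, 2.94-fold higher (log2 ratio 1.55), with both signals far above the floor. Serpina3n encodes a serpin that inhibits leukocyte proteases such as granzyme B. It gave 7.25, well below the floor, and 734, at least 12.9-fold higher. The transcript thus exceeded the floor only on the PC-3 medium array, as for Lcn2, and both ratios are lower bounds.

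The remaining members ranged from one of the largest ratios to no measurable level. Chil1 encodes a secreted chitinase-like glycoprotein that binds chitin without cutting it. It gave 69.3 with MDA-PCa2b medium, 1.22 times the floor, and 1708 with PC-3 medium, 24.7-fold higher (log2 ratio 4.62). That ratio ranked 4 among the 10650 genes, next to Saa3, but the lower signal was near the floor. Once the floor was raised to the 75th percentile, that signal fell under it and the log2 ratio became a lower bound of 2.51.

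Fgl2, which encodes a fibrinogen-like protein with prothrombinase and immune-suppressing forms, gave 417 and 709 by its brighter probe set, 1.70-fold higher (log2 ratio 0.77). Its other probe set gave 248 and 497, 2.01-fold higher. The probe sets differ in log2 ratio by about as much as the scatter between probe sets, and they fall on either side of 2-fold. Lrg1 encodes a leucine-rich glycoprotein that modulates TGF-beta signals in vessels. Its signals of 4.06 and 22.4 were below the floor on both arrays, so no ratio is given.

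**Figure D2:**
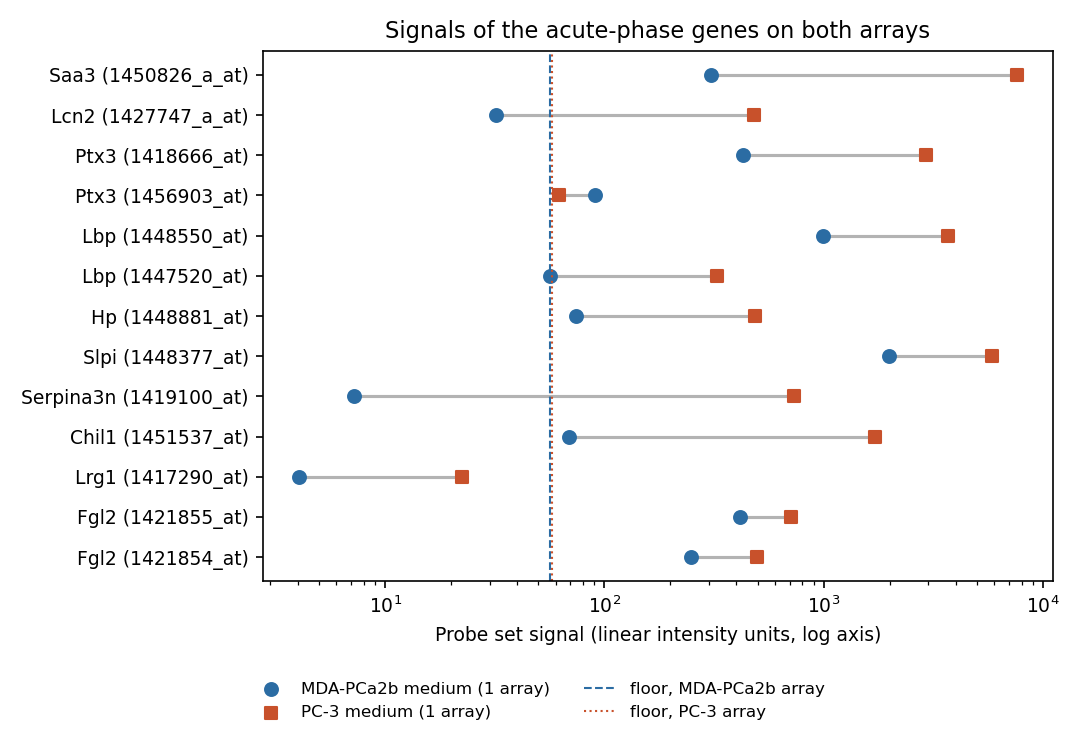
Signal of each of the 13 probe sets of the acute-phase genes with MDA-PCa2b medium (blue circles) and PC-3 medium (red squares), 1 array each, on a log axis of linear intensity units; the vertical lines are the floors of 56.7 and 57.7. Every pair runs to the right with PC-3 medium except the second probe set of Ptx3, and both signals of Lrg1 lie left of the floors.

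Of the 10 members 9 were above the floor on at least 1 array, and 8 of these were at least 2-fold higher with PC-3 medium (bounds included), against 2.12% of 11336 genes measured in the same way. Because large ratios helped to choose the members, nothing is read from that comparison. The median log2 ratio of the 9 was 2.77, with the bounds of Lcn2 and Serpina3n entered as they stand, and the range was 0.77 to 4.63. Over all 11336 genes it was -0.04. Among the 7 members above the floor on both arrays, Saa3 and Chil1 stood at a log2 ratio above 4.6, Ptx3 and Hp at 2.77 and 2.71, and Lbp, Slpi and Fgl2 below 2. Saa3 and Chil1, and likewise Ptx3 and Hp, lay closer together than the probe set SD of 0.24, so the order within each pair is not resolved. With 1 array per medium, the order of the other members is not established either. By rank from the top, Ptx3 was 16, Hp 17, Lbp 43, Slpi 82 and Fgl2 321.

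**Figure D3:**
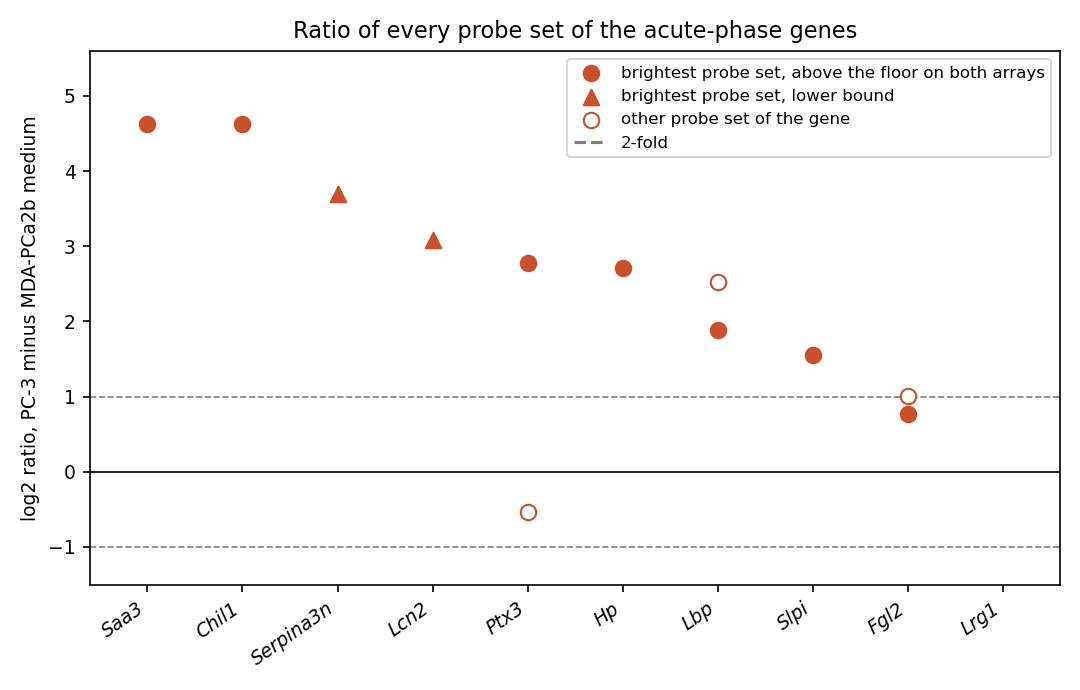
Log2 ratio of each probe set of the acute-phase genes, PC-3 minus MDA-PCa2b medium, with genes ordered by the ratio of their brightest probe set; triangles are lower bounds, open circles are other probe sets and dashed lines mark 2-fold. Saa3 and Chil1 lie highest at 4.63 and 4.62, the second Ptx3 probe set lies below 0 at -0.53, and Lrg1 has no point because it was below the floor on both arrays.

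Relatives of the members were largely below the floor. The list held 38 genes of the same protein families or of related function. Of these 27 had a probe set for that gene alone, and 19 of the 27 were below the floor on both arrays. Among the 8 measured relatives 2 were at least 2-fold higher and none lower, with a median log2 ratio of 0.27; the shares over all measured genes were 2.12% for higher and 1.85% for lower by the same rule. Saa1, a serum amyloid A gene that the liver makes in the acute phase, gave 16.2 and 229, at least 4.04-fold higher, and its second probe set gave a bound of 0.82 on the log2 scale. Saa2, its close relative, gave 9.42 and 104 (bound of 0.87). Saa1 and Saa2 thus exceeded the floor only with PC-3 medium, as did Lcn2 and Serpina3n. Their brightest probe sets carry the suffixes s and x, which mark probes that can match several transcripts. Rbp4, the retinol carrier of the lipocalin family, gave 383 and 768, 2.003-fold higher.

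Measured relatives within 2-fold included the lipocalin gene Apod (2491 and 3352, log2 ratio 0.43, second probe set 1.05) and Pltp, a lipid transfer protein gene of the Lbp family (3488 and 3726, 0.10). Wfdc1, which shares the protease inhibitor domain type of Slpi, gave 176 and 108 (-0.70). These 3 were picked with their values in view.

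Further genes of this list were below the floor. The short pentraxin genes Crp (2.67 and 12.5) and Apcs (11.9 and 6.09) read under the floor on both arrays. So did the chitinase-like gene Chil3, the chitinase gene Chit1 (6.44 and 32.8) and the fibrinogen chain genes Fga, Fgb and Fgg. Hpx, which encodes the haem scavenger haemopexin, gave 20.02 and 38.03. Among Serpina3 genes, Serpina3a (2.62 and 2.36) and Serpina3i (21.1 and 31.8) were below the floor. The Serpina3 genes are closely similar copies in a cluster, and how far the Serpina3n probe set reads other copies was not tested.

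Genes beside the members on the chromosome were compared by taking the nearest 3 protein-coding genes on each side. Of 60 neighbours 36 were measured, and their median log2 ratio was 0.02 (range -0.74 to 3.12). In this group 3 were at least 2-fold higher and none lower, against 2.12% higher and 1.85% lower over all measured genes. Saa1, in the same cluster as Saa3, was one. Tgm2, the tissue transglutaminase gene near Lbp, gave 558 and 4837, 8.67-fold higher. Sdc4, the syndecan-4 gene near Slpi, gave 673 and 2875, 4.27-fold higher.

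The 6 neighbours of Lcn2 had log2 ratios from -0.41 to 0.09, and the 4 measured neighbours of Hp from -0.12 to 0.13. Saa3 lay between Saal1 (377 and 436, log2 ratio 0.21) and Saa4 (22.1 and 42.0, below the floor), with Saa1 next after Saa4. The measured neighbours of Lcn2 and Hp thus all lay within 2-fold, as did those of Ptx3, Serpina3n, Chil1, Lrg1 and Fgl2. Saa3, Lbp and Slpi each had a neighbour past 2-fold.

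**Figure D4:**
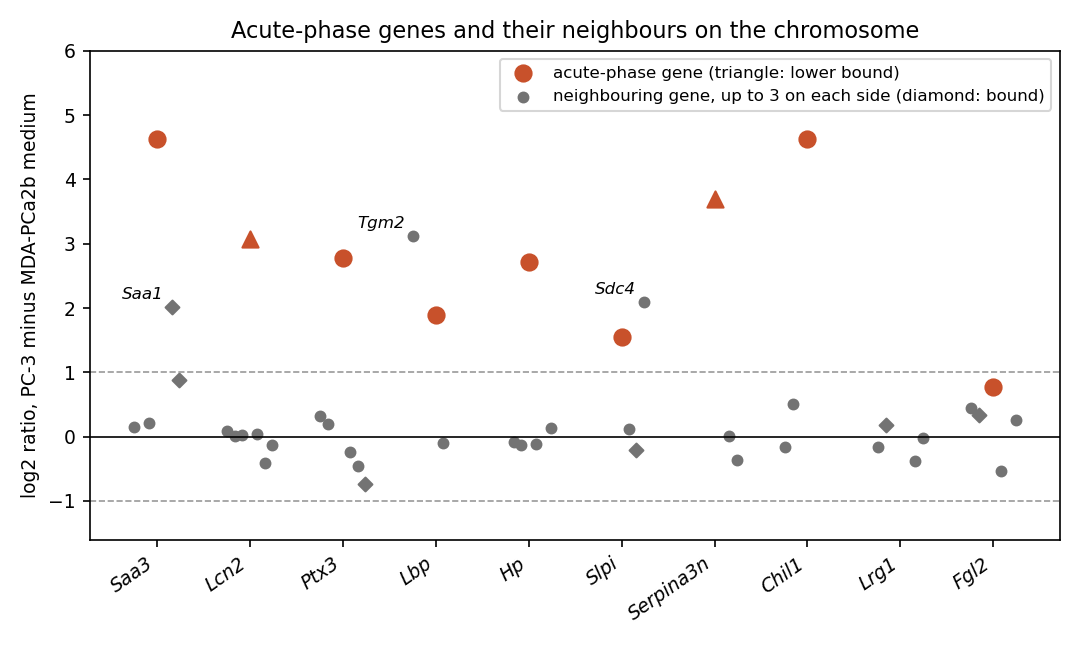
Log2 ratio, PC-3 minus MDA-PCa2b medium, of each acute-phase gene (red; triangles are lower bounds) and of its measured neighbours, up to 3 on each side in chromosome order (grey; diamonds are bounds). Saa1, Tgm2 and Sdc4 are the neighbours above the dashed 2-fold line, and the others lie between -0.74 and 0.87.

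Receptors and partners of the members were mostly within 2-fold. Of 18 genes 14 were measured, with a median log2 ratio of 0.34. Against shares of 2.12% higher and 1.85% lower over all measured genes, 1 was at least 2-fold higher and none lower. That gene was Tlr2, a receptor for bacterial lipopeptides and for serum amyloid A, with 323 and 1549 (4.79-fold). The genes that receive lipopolysaccharide from Lbp differed less: Cd14 gave 491 and 591, Ly96 260 and 345, and Tlr4 221 and 355 (log2 ratios 0.27, 0.41 and 0.68).

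Slc22a17, which encodes a lipocalin-2 receptor, gave 272 and 257. Its other receptor gene Lrp2, the haptoglobin scavenger receptor gene Cd163 and Fpr2, a serum amyloid A receptor gene, were below the floor on both arrays. Tnfaip6, whose product works with pentraxin-3 in hyaluronan matrix, gave 187 and 241 (log2 ratio 0.36). Fcgr2b, a receptor gene for Fgl2, gave 597 and 911 (0.61). Plscr1, which encodes a membrane scramblase that binds Slpi, gave 148 and 285 (0.95) by its brightest probe set, and 1.20 and 0.60 by its others, so its probe sets fall on either side of 2-fold. By brightest probe sets Tlr2 was the only measured gene of the list that reached 2-fold.

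Acute-phase genes outside the members were measured for 13 of 30, and 6 of these were at least 2-fold higher and none lower. The shares over all measured genes were 2.12% higher and 1.85% lower. This list too was chosen with earlier results of these data known, so nothing is read from the comparison. Saa1 was already counted among the relatives. The median log2 ratio of the 13 was 0.88. The largest ratios of the 6 were those of the metallothionein genes Mt2 (266 and 7077, 26.6-fold) and Mt1 (423 and 5278, 12.5-fold). The second Mt1 probe set was below the floor. Saa1 and Cfb followed. Cfb, the complement factor B gene, gave 95.3 and 298, 3.13-fold higher. The haem oxygenase gene Hmox1 (2.71-fold) and the protease inhibitor gene Timp1 (2.04-fold) made up the 6 and are named although they fall outside the 4 largest. The ceruloplasmin gene Cp, chosen after its values were seen, gave 929 and 1284, with log2 ratios of 0.47 by its brightest probe set and 0.38 to 2.10 by its others.

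A further 14 acute-phase genes were below the floor on both arrays. They included the alpha-1-acid glycoprotein genes Orm1 (1.46 and 20.4), Orm2 (9.30 and 10.6) and Orm3 (3.83 and 2.40). Among 9 genes known to fall in the liver in the acute phase, 6 of the 8 with a probe set were below the floor, Alb among them (3.44 and 8.79). The 2 measured genes of this list were higher with PC-3 medium: Rbp4, described above as a lipocalin, at 2.003-fold and Fetub (67.3 and 78.0) at a log2 ratio of 0.21. All 8 liver markers with a probe set were below the floor on both arrays.

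Other secreted innate defence genes were mostly within 2-fold. Of 25 genes 12 were measured, with a median log2 ratio of 0.06. Against a share of 2.12% over all measured genes, 1 of the 12 was at least 2-fold higher. This was Reg3g, which encodes an antibacterial lectin, with 3.47 and 117 (at least 2.06-fold). The lysozyme genes Lyz1 (14825 and 14516) and Lyz2 (9194 and 9416) had log2 ratios of -0.03 and 0.03. The genes S100a8 (13.8 and 14.3) and S100a9 (4.05 and 2.49), whose products form the metal-binding protein calprotectin, were below the floor on both arrays.

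Of genes for cytokines, receptors and factors that induce acute-phase proteins, 31 were measured. Of these 13 were at least 2-fold higher and none was lower by that much, against 2.12% higher and 1.85% lower over all measured genes. The list was chosen with earlier results of these data known, so nothing is read from that comparison. Its median log2 ratio was 0.75. The 4 largest were Nfkbiz (441 and 2313, 5.24-fold), which encodes an NF-kB cofactor needed for Lcn2 expression, Tlr2, the STAT3 feedback inhibitor gene Socs3 (818 and 3613, 4.42-fold) and Cebpb (658 and 2670, 4.06-fold). By other probe sets the log2 ratios were 1.96 and 1.23 for Nfkbiz, 1.81 and 2.06 for Socs3 and 2.16 for Cebpb.

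The following genes of that list were chosen after their values were seen. Among C/EBP genes, Cebpd gave 930 and 1898 (2.04-fold, second probe set below the floor). Cebpa (174 and 157) and Cebpg (543 and 555) had log2 ratios of -0.15 and 0.03. Among NF-kB genes, Relb gave 142 and 524 (3.69-fold), Nfkb2 191 and 393 (2.06-fold) and Rela 953 and 1326 (log2 ratio 0.48). The NF-kB inhibitor gene Nfkbia gave 2326 and 7966 (3.42-fold), with log2 ratios of 1.33 to 2.27 by its other probe sets. Among receptors, Il1r1 gave 314 and 1154 (3.68-fold, second probe set below the floor). The oncostatin M receptor gene Osmr gave 1238 and 3137 (2.53-fold). Its other probe sets gave a log2 ratio of 1.49 and signals below the floor. Il6st, the shared receptor chain of the interleukin-6 family, gave 1663 and 4053 (2.44-fold). The interleukin-6 receptor gene Il6ra was near the floor (59.8 and 52.0). Of the cytokines, Il6 gave 107 and 372 (3.48-fold) and Lif 96.9 and 204 (2.10-fold, second probe set below the floor). Il11 gave 32.7 and 59.1, the latter barely above the floor. Il1a, Il1b, Tnf and Osm were below the floor on both arrays. Stat3 gave 1262 and 2121 by its brightest probe set (log2 ratio 0.75) and log2 ratios of -0.38 to 0.27 by its others. The arrays carry mouse probe sets, and the human proteins of the tumour-cell media were not measured.

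**Figure D5:**
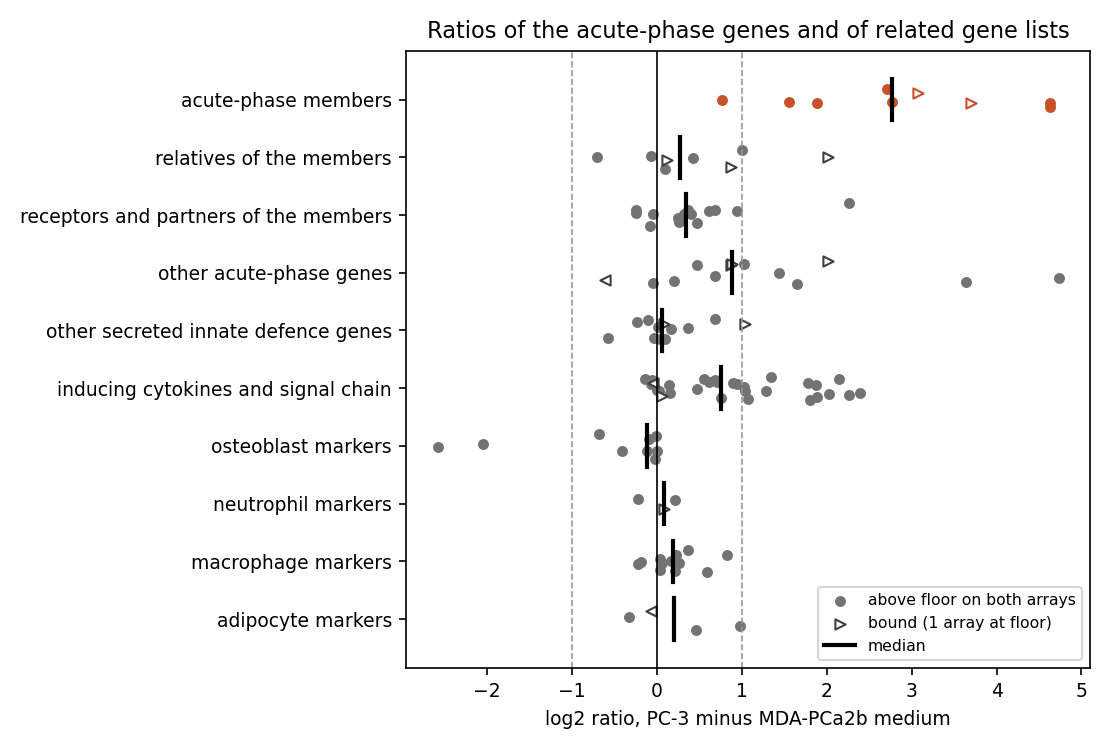
Log2 ratio, PC-3 minus MDA-PCa2b medium, of each measured gene of the acute-phase members and of 9 related lists and cell markers, with the median of each as a black bar and 2-fold as dashed lines; open triangles are bounds. The members have a median of 2.77, the inducing cytokines and signal chain 0.75, and the macrophage markers 0.19.

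Several members are also made by leukocytes and fat cells, so markers of these cells are given beside them. Of 14 neutrophil markers 11 were below the floor on both arrays, among them Elane (2.14 and 6.52) and Mpo (34.8 and 35.7). The markers above the floor on both arrays were Itgam (68.7 and 79.7, log2 ratio 0.21) and Ptprc (433 and 370, -0.23), which macrophages express too. Camp, a neutrophil granule gene, exceeded the floor only with PC-3 medium (1.31 and 60.3), and since the latter signal is barely above the floor its bound says little about the size. The summed signal of the list, signals below the floor included, was 645 on the MDA-PCa2b medium array and 689 on the other. Ptprc and Itgam make up most of the sum on each array, so it says little about neutrophils.

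Most macrophage markers were clearly above the floor, but Itgam (68.7 and 79.7) and the MDA-PCa2b medium signal of Fcgr1 were near it. All 12 were measured on both arrays, among them Csf1r (2713 and 2378) and Adgre1 (1346 and 1405). The largest ratios were those of the Fc receptor gene Fcgr1 (86.7 and 153, log2 ratio 0.82, second probe set -0.02) and the lysosomal gene Cd68 (566 and 851, 0.59). None differed 2-fold by its brightest probe set, the log2 ratios ranged from -0.23 to 0.82 and the summed signal was 17321 and 17933. Lyz2 makes up the largest part of that sum on each array. Of 7 adipocyte markers with a probe set, Lep, Retn and Cidec were below the floor on both arrays, and Adipoq gave 101 and 139. The fatty-acid-binding gene Fabp4 had the largest adipocyte ratio (265 and 522, log2 ratio 0.98), and that of Adipoq was 0.47. Lpl, the lipoprotein lipase gene, was lower (2652 and 2107, -0.33) and makes up most of the summed signal of 3097 and 2830. The part of macrophages and adipocytes in the members' signals was not tested, and in such mixed cultures fewer cells of a type and less RNA per cell cannot be told apart.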

How the data were processed

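Total RNA (5 µg) of each culture was labelled as biotinylated cRNA and hybridised to 1 Affymetrix mouse array of 45101 probe sets, 64 of them controls. The submitters' processing notes name GCOS 1.4 and MAS5 for the deposited values, each of which is the linear intensity of a probe set. The mean without the lowest and highest 2% was 300.002 on both arrays, so each had been scaled globally; scaling target, background settings and detection calls are not given in the sources used here. Groups came from the source descriptions; part of the MDA-PCa2b name also stands in the title of the PC-3 sample.

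Gene names came from the platform annotation of the probe sets (34958 with 1 gene, 932 with several, 9211 unlisted), with no name taken from an entry of several genes. Signals below the 50th percentile of the non-control probe sets of their array were set to it, and log2 was taken; a ratio with 1 array at this floor is a bound, and with both it was not given. The brightest probe set stood for its gene. Genes were counted past 2-fold, bounds included. Neighbours were taken from the order of RefSeq genes (GRCm38.p6), and promoters from RefSeq of the same build. Python 3.11.15 with numpy 2.4.6 and pandas 2.3.3 was used, and scripts were tested on simulated data.

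In each list the measured genes at least 2-fold different were named, up to 4 by size of ratio, and the top 2 were named where no gene reached that fold; defining cell markers were given by their signals, and other names were picked with their values in view. The members and all lists were chosen with earlier results of these data known, and lists share genes. The precision is limited by the number of arrays, 1 per medium. The floor was also set at the 25th and at the 75th percentile or replaced by log2(signal + 16); further alternatives were quantile normalisation, centring the ratios on their median, averaging probe sets, leaving out probe sets with the suffixes s, x and a, and thresholds of 1.5-fold and 3-fold.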

Additional observations from a re-analysis of the deposited data

How the results depend on the processing

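The number of members at least 2-fold higher was 8 and lay between 6 and 9 over the 9 alternatives. No log2 ratio of the 9 measured members changed sign under the 7 alternatives that recompute ratios, of which 6 gave a ratio for Saa3 and Lcn2. This says little, because the members were chosen in part for large ratios. A bound with only the PC-3 medium signal above the floor is also positive by its definition. A floor at the 75th percentile gave the members a median log2 ratio of 1.55, with bounds entered as they stand. Serpina3n, Lcn2, Hp and Chil1 then had lower bounds of 1.29, 0.68, 0.70 and 2.51, since their MDA-PCa2b medium signals lay under that floor. Without a floor, by log2(signal + 16), Serpina3n was at 5.01 and Lcn2 at 3.36. Leaving out probe sets with the suffixes s, x and a removes the only ones of Saa3 and Lcn2.

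Counts of the related lists moved mainly with the floor and the threshold, and that of the inducing genes also when probe sets were averaged. Genes at least 2-fold different among the relatives were 7 with the floor at the 25th percentile, 1 at the 75th, 6 with log2(signal + 16) and 1 without those suffixes, and 4 at 1.5-fold and 1 at 3-fold, against 2. For the other acute-phase genes the counts were 11 with the floor at the 25th percentile, 10 with log2(signal + 16) and 10 at 1.5-fold, against 6; 4 were left by a floor at the 75th percentile, without those suffixes or at 3-fold; the 11 held 9 higher and 2 lower genes. Secreted innate defence genes gave 3 with a floor at the 25th percentile, 0 at the 75th, 4 with log2(signal + 16), 2 at 1.5-fold and 0 at 3-fold, against 1. Receptors and partners gave 4 at 1.5-fold, against 1. Of the 13 inducing genes, averaging probe sets left 9, and so did taking the 75th percentile as the floor. Their count was 11 by log2(signal + 16), 12 without those suffixes, 19 at 1.5-fold and 8 at 3-fold. No paired analysis was possible because each medium had 1 array. Signals near the floor limit the size of the ratios, and the spread between cultures is unknown.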
